A study of Homo sapiens with 9 samples.

Results

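Bidirectional coding promoters are stretches of DNA from which 2 protein-coding genes are read away from each other. Here they were the stretches between the transcription start sites (TSSs) of head-to-head gene pairs, with the minus-strand TSS 0 to 1000 bp upstream of the plus-strand TSS, widened by 500 bp on each side. The TSS of a gene was that of its longest protein-coding transcript in the GENCODE annotation of GRCh37. Of 19820 coding genes, 1932 (9.75%) stood in such an arrangement, in 986 pairs that formed 946 separate stretches. Of 142069 RNA polymerase II (RNAPII) peaks in the 5 lists analysed, 3568 overlapped one of these stretches, and a promoter can have a peak in each list. No measured value entered the choice of stretches.

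RNAPII was mapped by chromatin immunoprecipitation and sequencing (ChIP-seq) in HEK293, a line derived from human embryonic kidney, to ask how its distribution depends on RECQL5, a DNA helicase that binds RNAPII. In the hairpin arm, cells had been infected with lentivirus carrying a control shRNA or one of 2 shRNAs against RECQL5, called shRNA5 and shRNA7. In the doxycycline arm, HEK293 T-REx cells with the pcDNA4/TO-RECQL5 plasmid, which adds a full-length RECQL5 under a promoter that doxycycline induces, received 0.0 or 1.0 ng/ml of the drug, and the endogenous gene was present in both. Each of these 5 groups was 1 library, with 4 IgG libraries as background for peak calling, so no difference below has a replicate check and no p-value is given. Intervals are 95% intervals that cover counting error only, and a list that lacks a peak shows that none is listed there, not that polymerase was absent. The deposited hairpin lists also hold fewer peaks than the study's methods say were called, by a larger part for the control shRNA than for shRNA5 or shRNA7. A peak missing from a hairpin list can therefore be one that was called and is not listed, and control occupancy, folds over the control list and counts of TSSs without a control peak are values of the deposited lists. Peak lists hold no expression values, so the cell line was not checked against marker genes.

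At a promoter of this kind, polymerase is loaded in both directions and often pauses a short way into each gene. Such promoters are typically CpG islands without a TATA box, and the gene pairs they serve often have housekeeping roles, DNA repair among them. The distance between the TSSs had a median of 167 bp, and it was up to 100 bp in 279 pairs, above that and up to 250 bp in 377, above that and up to 500 bp in 211, and longer in 119. Most stretches, 908, held 1 pair, while 36 held 2 pairs and 2 held 3.

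The DNA between the TSSs is shown for 8 promoters that the results below turn on, read from the GRCh37 plus strand 5′ to 3′, from the minus-strand TSS to the plus-strand TSS. Capitals mark exact matches on either strand to 8 short motifs. CCGGAAG is a core that factors of the ETS family bind. CCAAT is the box of the trimeric factor NF-Y. GGGCGG is the GC box of Sp1. TATAAA is the core of the TATA box. The motifs of NRF1, CREB, YY1 and ZBTB33 were taken as GCATGCGC, TGACGTCA, AAGATGGCG and TCTCGCGA. RECQL5-SAP30BP is the promoter of the targeted gene itself, and COL4A1-COL4A2 had no peak in any list. SURF1-SURF2, TRIAP1-GATC, SRSF7-GEMIN6 and CBX5-HNRNPA1 had a peak in all 5 lists, with tags or summits given below. PAF1-MED29 and SARS2-MRPS12 had a peak in every list but that of shRNA7.
RECQL5-SAP30BP, chr17:73663234-73663418: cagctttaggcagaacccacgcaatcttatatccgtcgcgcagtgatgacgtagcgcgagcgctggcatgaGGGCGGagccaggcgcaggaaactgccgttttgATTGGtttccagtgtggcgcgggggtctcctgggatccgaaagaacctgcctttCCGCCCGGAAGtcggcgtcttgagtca
COL4A1-COL4A2, chr13:110959504-110959631: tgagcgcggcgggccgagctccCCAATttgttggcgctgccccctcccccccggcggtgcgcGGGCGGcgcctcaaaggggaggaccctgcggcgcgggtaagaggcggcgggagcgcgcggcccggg
SURF1-SURF2, chr9:136223363-136223426: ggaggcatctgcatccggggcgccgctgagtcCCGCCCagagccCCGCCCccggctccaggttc
TRIAP1-GATC, chr12:120884187-120884247: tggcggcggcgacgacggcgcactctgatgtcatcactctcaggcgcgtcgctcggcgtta
SRSF7-GEMIN6, chr2:38978636-38978676: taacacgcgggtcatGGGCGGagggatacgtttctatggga
CBX5-HNRNPA1, chr12:54673906-54673977: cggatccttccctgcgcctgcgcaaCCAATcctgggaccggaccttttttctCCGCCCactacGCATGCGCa
PAF1-MED29, chr19:39881746-39882018: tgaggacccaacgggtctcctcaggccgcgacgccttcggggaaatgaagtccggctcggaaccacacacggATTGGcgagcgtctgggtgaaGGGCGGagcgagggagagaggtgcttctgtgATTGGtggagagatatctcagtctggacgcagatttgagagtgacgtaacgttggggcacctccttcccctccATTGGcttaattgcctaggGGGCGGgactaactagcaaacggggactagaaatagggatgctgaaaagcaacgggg
SARS2-MRPS12, chr19:39421403-39421584: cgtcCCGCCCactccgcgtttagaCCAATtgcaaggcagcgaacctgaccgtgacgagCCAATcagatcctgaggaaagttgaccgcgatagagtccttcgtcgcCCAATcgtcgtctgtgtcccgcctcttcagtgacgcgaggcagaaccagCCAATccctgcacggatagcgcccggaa

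The RECQL5-SAP30BP stretch of 185 bases held 1 ETS, 1 NF-Y and 2 Sp1 matches, and its ETS match overlapped an Sp1 match. SARS2-MRPS12 held 4 NF-Y matches and PAF1-MED29 held 3. None of the 8 motifs was found in the 61 bases of TRIAP1-GATC. The GC content of the 8 stretches ran from 56.1% in SRSF7-GEMIN6 to 79.7% in COL4A1-COL4A2. A match is only a run of letters, and none of these stretches was tested for binding of the factor.

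Most bidirectional promoters carried a called RNAPII peak in every list but that of the control hairpin. A peak was called at 337 of the 946 stretches (35.6%, 32.6 to 38.7) in the control shRNA list, at 733 (77.5%, 74.7 to 80.0) upon shRNA5 and at 774 (81.8%, 79.2 to 84.1) upon shRNA7. In the doxycycline arm, 839 stretches (88.7%, 86.5 to 90.6) had a peak without the drug and 790 (83.5%, 81.0 to 85.7) with it. All 5 lists had a peak at 303 stretches, and 352 had one in every list but the control. A further 59 had a peak upon shRNA7 and in both lists of the doxycycline arm only, 19 without doxycycline alone, 11 upon shRNA7 alone and 4 with doxycycline alone, and none in the control list alone. The 82 stretches with no peak in any list were 8.67% (7.04 to 10.6) of all.

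As peaks, these were 336 of the 5287 in the control list, 734 of 23698 for shRNA5, 772 of 32124 for shRNA7, 898 of 47060 without doxycycline and 828 of 33900 with it. They made up 6.36% of control peaks, against 3.10% and 2.40% of those upon shRNA5 and shRNA7, while their number was 2.18-fold (1.92 to 2.49) and 2.30-fold (2.02 to 2.61) that of the control. The whole deposited lists were 4.48-fold and 6.08-fold as long as the control list, which is the one shortened most relative to the called peaks, and peaks at the TSSs of one-way genes, meaning coding genes that are no member of such a pair, were 2.83-fold and 3.40-fold as many. With doxycycline the number at bidirectional promoters was 0.922-fold (0.839 to 1.01), against 0.808-fold (0.783 to 0.834) at one-way TSSs and 0.720-fold over the whole list. These folds move with the length of the lists. In the 5287 peaks of highest significance score of each hairpin list, 336 lay at bidirectional promoters of the control list, 340 of the shRNA5 list and 271 of the shRNA7 list, so that the direction for shRNA7 turned.

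Bidirectional TSSs had a peak more often than one-way TSSs in each of the 5 lists. Over windows of 500 bp on either side of the TSS, the share was 35.9% of 1932 bidirectional against 13.2% of 17888 one-way TSSs in the control list, a difference of 22.7 points (20.5 to 24.9). It was 77.7% against 36.7% upon shRNA5, a difference of 41.0 points (39.0 to 43.0), and 82.0% against 45.1% upon shRNA7, a difference of 37 points (35.1 to 38.8). Without doxycycline it was 88.3% against 48.4%, and with it 83.3% against 39.8%, differences of 39.9 points (38.3 to 41.5) and 43.5 points (41.6 to 45.3). The 2 TSSs of a pair often share a peak, so the intervals are too narrow. A peak from either gene can also fill the windows of both, while a one-way TSS has no such partner. The differences are therefore not those of single TSSs with their own polymerase, and the part due to the partner was not tested.

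Base composition moved with this difference. Of the bidirectional TSS windows, 90.3% were CpG-rich, here a GC content of at least 50% with an observed over expected CpG of at least 0.6, against 58.1% of one-way windows. Among CpG-rich windows alone, the difference in occupancy was 18.2 points in the control list, 26.5 and 19.4 upon the hairpins in the same order, and 18.4 without and 25.8 with doxycycline. Among windows that were not CpG-rich, 19.8% to 60.4% of the 187 bidirectional TSSs had a peak in the 5 lists, against 4.61% to 16.5% of the 7489 one-way TSSs. Bidirectional TSSs thus had a peak more often in both classes, and by less in the CpG-rich class than over all windows. This split was chosen after the values were seen.

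**Figure D1:**
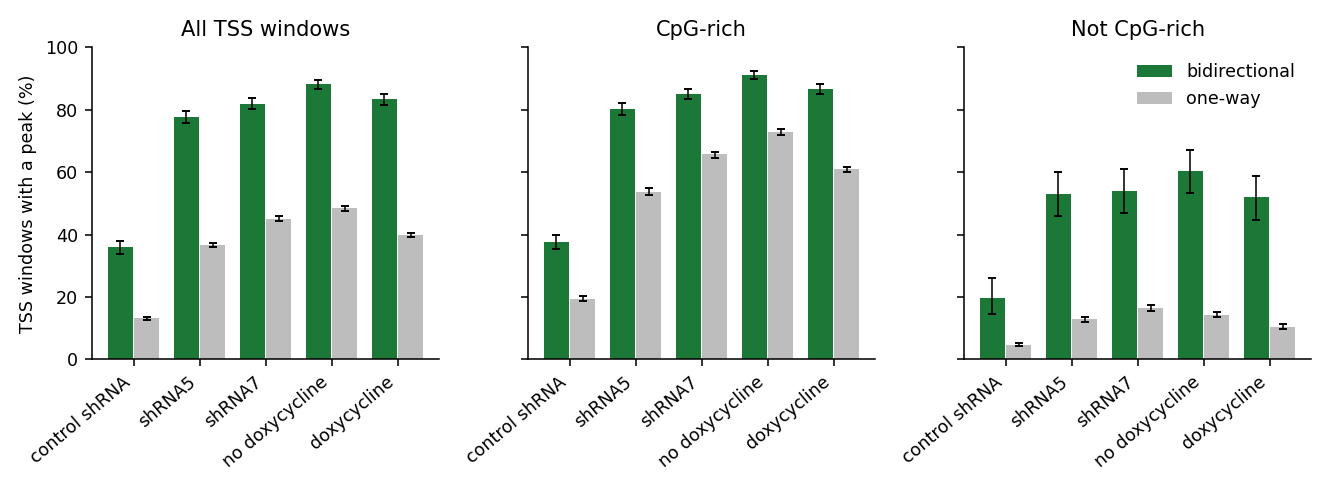
Share of TSS windows (500 bp on either side of the TSS) with an RNAPII peak in each of the 5 lists (percent), for bidirectional (green) and one-way (grey) coding genes, over all windows and over those that were or were not CpG-rich; bars start at 0 and error bars are 95% Wilson intervals. The green bar is above the grey bar in all 15 comparisons, from 19.8% against 4.61% in the control list outside CpG-rich windows to 91.3% against 72.9% without doxycycline inside them.

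In the lists as deposited, many bidirectional TSSs without a control peak had one upon each hairpin against RECQL5. The windows of 812 bidirectional TSSs (42.0%) had a peak upon shRNA5 and none in the control list, against 25.4% of all 19820 coding TSSs. Upon shRNA7 there were 958 (49.6%), against 34.3% of all. Taken over the 1239 bidirectional TSSs without a control peak, these were 65.5% (62.8 to 68.1) and 77.3% (74.9 to 79.6), compared with 27.2% and 37.6% of the 15525 one-way TSSs without one, and with 42.9% and 58.9% of those that were CpG-rich. Here too, a peak from either gene of a pair can count for both TSSs. The opposite pattern was rare for shRNA5, with 4 bidirectional TSSs that had a control peak and none upon shRNA5 (0.207%, against 0.121% of all). It was more frequent for shRNA7, with 66 (3.42%, against 1.07% of all). This pattern needs a control peak, which bidirectional TSSs had more often. Of the 693 bidirectional TSSs with a control peak, 0.577% (0.225 to 1.47) had none upon shRNA5, against 0.846% (0.549 to 1.3) of 2363 one-way TSSs. For shRNA7 the shares were 9.52% (7.56 to 11.9) and 6.18% (5.28 to 7.22). These counts rest on the length of the lists. With hairpin lists of equal length, 157 and 179 bidirectional TSSs had a peak upon shRNA5 and shRNA7 that the control list lacked, and 311 had a control peak and none upon shRNA7, so that for shRNA7 the direction turned.

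With doxycycline, few bidirectional TSSs differed in having a peak. A peak without the drug and none with it was found at 123 (6.37%, against 9.45% of all), and the opposite at 26 (1.35%, against 1.21% of all). Of the 1706 bidirectional TSSs with a peak without doxycycline, 7.21% (6.08 to 8.54) had none with it, compared with 20.2% (19.4 to 21.1) of the 8651 such one-way TSSs. Among the 226 bidirectional TSSs lacking a peak without the drug, 11.5% (7.97 to 16.3) had one with it. The same held for 2.31% (2.02 to 2.63) of 9237 one-way TSSs and for 5.03% of the CpG-rich ones. At the level of stretches, 60 had a peak without the drug only and 11 with it only.

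Where a promoter had a peak in both lists, the peaks of the knockdown lists were longer and held more tags than those of the control list. Tags are sequenced fragments counted in the peak, not scaled to library depth. Within the 303 stretches with a peak in all 5 lists, the median was 85 tags (79 to 90) for the control, 190 (177 to 207) for shRNA5 and 291 (249 to 345) for shRNA7, in peaks with a median length of 1613, 2670 and 4020 bp. In the doxycycline arm the median was 90 tags without the drug and 92 with it, in peaks of 1528 and 1467 bp. The median ratio of tags at the same stretch was 2.0 (1.91 to 2.11) for shRNA5 over control, with a higher number upon shRNA5 in 334 of 335 stretches. For shRNA7 over control it was 3.23 (2.93 to 3.59), and all 305 stretches had more tags upon shRNA7. For doxycycline it was 1.03, with more tags upon the drug in 403 of 779 stretches and fewer in 361.

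Part of the larger tag number went with longer peaks. The median length ratio was 1.51 (1.43 to 1.58) for shRNA5, 2.08 (1.82 to 2.36) for shRNA7 and 0.927 (0.893 to 0.951) for doxycycline. Tags per kb of peak had a median ratio of 1.34 (1.31 to 1.37) for shRNA5, 1.54 (1.49 to 1.58) for shRNA7 and 1.12 for doxycycline, with a higher density upon the drug in 482 of 700 stretches. At one-way TSSs the tag ratios were 2.02, 3.36 and 1.0 and the length ratios 1.48, 2.12 and 0.890, so bidirectional promoters lay close to them. At least 2 times the tags of the control were found at 345 of 689 bidirectional TSSs upon shRNA5 (50.1%, against 51.0% of all TSSs with a peak in both lists) and at 547 of 627 upon shRNA7 (87.2%, against 87.6%). With doxycycline at least 2 times the tags were found at 57 of 1583 (3.60%, against 3.95%), and at most 0.5 times at 63 (3.98%, against 5.82%). The shares at bidirectional TSSs stood near those of all coding TSSs. The files do not give library depth, and tags were not scaled to it here. Per the study's methods, the libraries compared within an arm had similar numbers of reads, with fewer in the doxycycline arm than in the hairpin arm. In bulk cells, polymerase in more cells and more polymerase per cell cannot be told apart either.

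**Figure D2:**
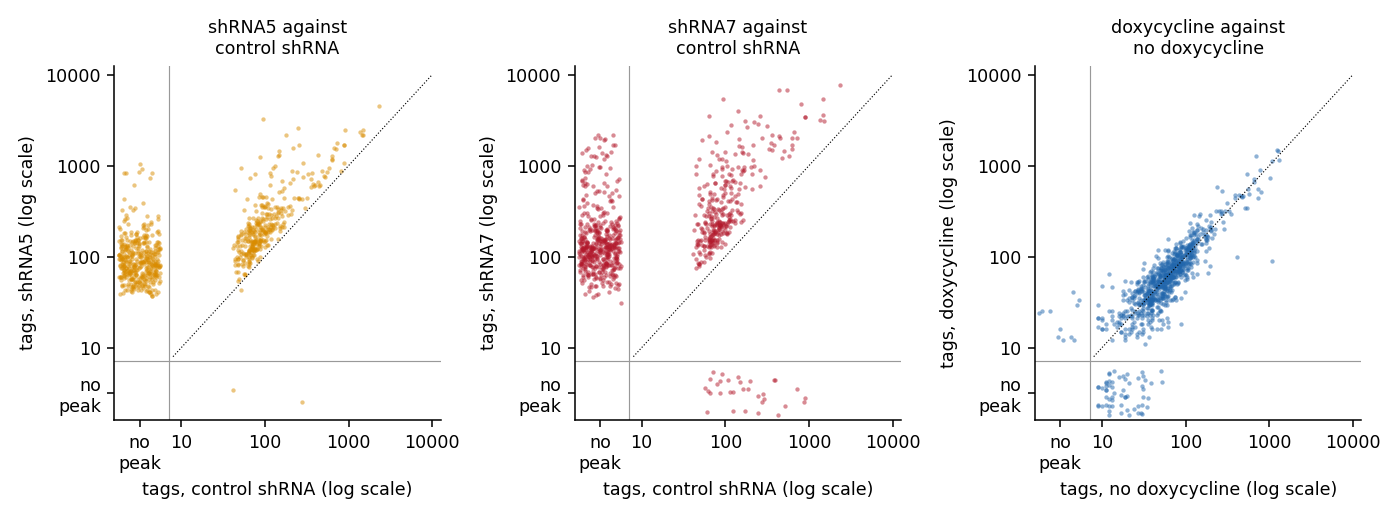
Tags in the peaks at each bidirectional promoter in 1 list against another (log scales), for shRNA5 and shRNA7 against control shRNA and for doxycycline against no doxycycline; each point is a stretch, points in the strips marked "no peak" had none in that list and are spread at random within the strip, and the dotted line marks equal tags. All 305 stretches with a peak in both lists lie above the line for shRNA7, 334 of 335 do for shRNA5, and the points for doxycycline lie on both sides; 32 stretches with a control peak lie in the strip without a shRNA7 peak.

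In most promoters with a short distance between the TSSs, the summit, the position of highest coverage, lay inside one of the genes rather than between them. Over stretches of 1 pair, the summit of the peak with most tags lay between the TSSs at 18.2% (14.4 to 22.9) of 318 promoters in the control list, at 18.1% and 17.3% upon shRNA5 and shRNA7, and at 19.1% and 19% without and with doxycycline. The share on the minus-strand side ran from 38.1% in the control list to 41.8% upon shRNA7, and on the plus-strand side from 39.8% with doxycycline to 43.7% in the control list. The plus-strand side held more summits in the control, shRNA5 and no doxycycline lists, and the minus-strand side in the other two. The median distance of the summit from the midpoint of the TSSs was 188 bp in the control list, 194 and 182 bp upon shRNA5 and shRNA7, and 158 and 174 bp without and with doxycycline. Where the TSSs were over 500 bp apart, the summit lay between them at 44.2% of 43 promoters in the control list. It did so at 3.33% of 90 promoters where they were up to 100 bp apart. In the same order, the shares were 45.2% and 4.3% upon shRNA5 and 37.2% and 6.57% upon shRNA7. They were 30.6% and 15.2% without doxycycline and 39.1% and 15.6% with it, a smaller contrast. A longer distance also leaves more room for a summit between the TSSs.

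Summits lay at similar places in the different lists. The median distance between the summits of a promoter in the control list and upon shRNA5 was 62 bp (45 to 71), and it was also 62 bp (50 to 77) upon shRNA7. Between the lists without and with doxycycline it was 67 bp (58 to 74). Where both summits lay outside the stretch between the TSSs, they lay on the same side at 84.0% of 237 promoters for shRNA5, at 82.8% of 209 for shRNA7 and at 78.4% of 509 for doxycycline.

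**Figure D3:**
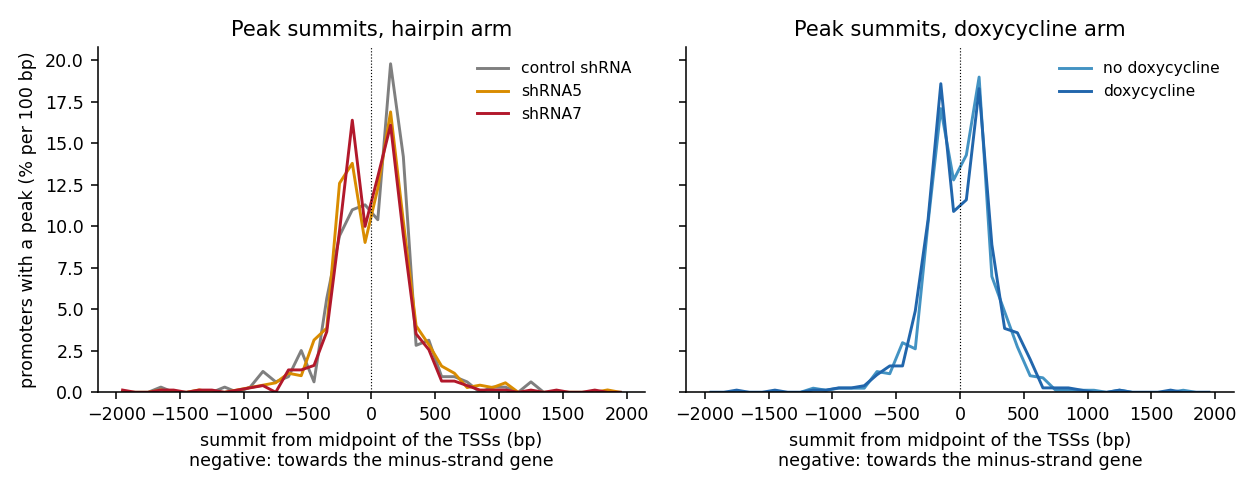
Position of the summit relative to the midpoint of the TSSs (bp, negative towards the minus-strand gene) at bidirectional promoters of 1 pair, as the percentage of promoters with a peak per 100-bp bin, for the 3 hairpin lists (left) and the 2 lists of the doxycycline arm (right). The lists have a maximum on each side of the midpoint, in the bins centred 150 bp away, and fewer summits at the midpoint itself except in the control list, where the minus side has no separate maximum.

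The called peaks usually covered both TSSs of a pair. This was so at 95.3% of promoters in the control list, at 95.8% and 98.1% upon shRNA5 and shRNA7, and at 87.7% and 85.8% without and with doxycycline. In the doxycycline arm the share was 54.1% and 49.4% where the TSSs were over 500 bp apart. More than 1 peak was called at 59 stretches without doxycycline and at 37 with it, compared with 0 in the control list and 2 upon either hairpin.

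Taken by strand, the median reach of peaks was about the same past the minus-strand TSS as past the plus-strand TSS. Such medians do not show how even a single peak was, which its longer and shorter sides describe. Within the 287 promoters of 1 pair with a peak in all 3 hairpin lists, the medians were 671 and 665 bp in the control list, 1098 and 1109 bp upon shRNA5, and 1274 and 1403 bp upon shRNA7. The longer of both arms had a median of 920 bp (852 to 991) in the control list and 2554 bp (2111 to 3090) upon shRNA7, and the shorter one 519 bp (492 to 565) and 943 bp (864 to 1017). Over the 743 promoters with a peak in both lists of the doxycycline arm, the reach was 516 and 500 bp without the drug and 462 and 458 bp with it. At all one-way TSSs with a peak, the median reach downstream exceeded that upstream in each list, by least with doxycycline and by most upon shRNA7, at 1215 against 909 bp.

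**Figure D4:**
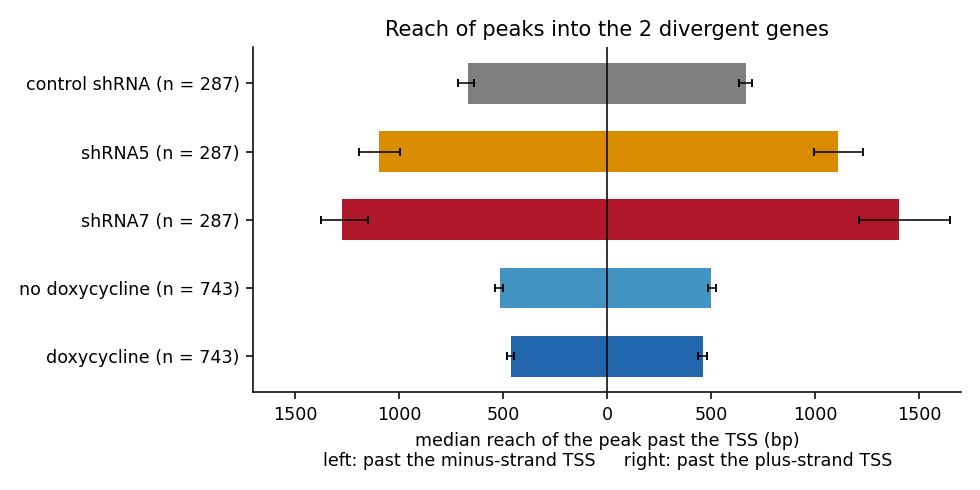
Median distance in bp from each TSS to the end of the peak, past the minus-strand TSS (left) and past the plus-strand TSS (right), at bidirectional promoters of 1 pair with a peak in every list of the arm; bars start at 0 and error bars are 95% intervals of the median. In the hairpin arm the bars are longer on both sides upon the hairpins, from 671 and 665 bp in the control list to 1274 and 1403 bp upon shRNA7, while those of the doxycycline arm stay between 458 and 516 bp.

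Peaks in the gene bodies were also found, from 500 bp past the TSS to the end of the gene and touching no coding TSS window. At least 1 gene of the pair had one in 25.6% (22.9 to 28.4) of the 986 pairs in the control list, in 66.1% upon shRNA5 and in 73.9% upon shRNA7, and both genes did in 3.25%, 24.3% and 32.7%. Among peaks with a fold enrichment of at least 10, the shares for at least 1 gene were 20.9%, 22.1% and 33.9%, and with hairpin lists of equal length they were 25.6%, 28.8% and 33%. Without and with doxycycline the shares were 75.6% and 61.1% for at least 1 gene and 33.2% and 20.5% for both. Among peaks with a fold enrichment of at least 10, the shares for at least 1 gene were 73.2% and 38%, a larger difference. With lists of equal length in this arm they were 66.2% and 61.1%, a smaller difference, so its size moved with the length of the lists. Over the whole lists, the minus-strand and plus-strand genes had body peaks at like rates, for example 54.3% and 52.3% upon shRNA7. A pair has 2 genes in which a peak can be found, so shares per gene are lower. In the control, shRNA5 and shRNA7 lists they were 14.4%, 45.4% and 53.5% of bidirectional genes and 8.21%, 28.5% and 35.6% of one-way genes. Without and with doxycycline they were 54.5% and 40.7% of bidirectional genes and 39.2% and 27.3% of one-way genes. One-way genes thus differed between lists in the same directions. Among genes with a peak at their TSS, a body peak was found in 21.1% (18.2 to 24.3) of bidirectional and 26.7% (24.9 to 28.5) of one-way genes in the control list, in 58.5% and 57.1% upon shRNA7, and in 45.1% (42.6 to 47.5) and 49.4% (48.2 to 50.5) with doxycycline. Where only 1 gene of a pair had a body peak, the summit at the promoter lay towards that gene in 60.4% (54.9 to 65.6) of 318 pairs with doxycycline and in 48.7% (43.2 to 54.3) of 310 upon shRNA7.

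The DNA from 250 bases before to 50 bases after bidirectional TSSs differed in motif content from that of one-way TSSs. The ETS motif was found at 29.8% of 1932 bidirectional TSSs, at 11.2% of one-way TSSs, at 16.3% of CpG-rich one-way TSSs and at 13% of all coding TSSs. The motif of NRF1, a regulator of nuclear genes for mitochondria, was found at 7.35%, 3.69%, 5.45% and 4.05%, and that of YY1 at 5.43%, 2.05%, 3.14% and 2.38%, in the same order. The TATA box letters were rarer, at 3.78% of bidirectional against 10.7% of one-way, 4.89% of CpG-rich one-way and 1984 of all 19820 TSSs. The Sp1 motif was found at 74.8%, 55.1%, 78.5% and 57.0% and the NF-Y motif at 39.0%, 34.8%, 33.7% and 35.2%, so that the difference for Sp1 turned among CpG-rich promoters. The CREB motif was found at 4.04%, 2.35%, 3.38% and 2.51%. Windows of paired TSSs overlap, so that 1 match can be counted for both genes.

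Motifs also differed between bidirectional TSSs with and without peaks. The ETS motif was found at 35.5% (32 to 39.1) of the 693 bidirectional TSSs with a control peak, at 29.4% (26.7 to 32.2) of the 1072 with a peak in another list only and at 8.38% (5.06 to 13.6) of the 167 with none. The letters bound by ZBTB33 (Kaiso), TCTCGCGA, were found at 7.79% of TSSs with a control peak, at 1.68% (1.06 to 2.64) of those with a peak elsewhere only and at 1.58% of all coding TSSs. YY1 and CREB motifs were at 0 of the 167 TSSs without a peak, which allows a share of up to 2.25% by the Wilson interval. CpG-rich windows made up 59.9% (52.3 to 67.0) of those 167, against 94.7% (92.7 to 96.1) of the TSSs with a control peak.

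The gene lists are given beside the shares over all 946 stretches, which were 35.6% for the control, 77.5% and 81.8% for the hairpins and 88.7% and 83.5% without and with doxycycline, and no difference from them was tested. Among 31 stretches of DNA repair genes, 13 had a control peak, 27 and 28 had one upon shRNA5 and shRNA7, and 29 and 28 had one without and with doxycycline. These held 31 of the 86 genes of the list (36%), compared with 9.75% of all coding genes. BRCA1-NBR1, with the homologous recombination gene BRCA1, had 0, 328, 372, 61 and 81 tags in the lists of the control, shRNA5, shRNA7, no drug and the drug, an order kept for the pairs below. MRE11-ANKRD49, with a nuclease subunit of the break-sensing MRN complex, had 76, 149, 184, 68 and 49 tags. The first lacked a control peak and the second had a peak in all 5 lists. NTHL1-TSC2, with a base-excision glycosylase, had none in any.

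The 11 histone stretches, each holding a pair of core histone genes, had most tags of the 8 gene lists. Of these, 9 had a control peak and 10 had a peak in each other list, with a median of 433 tags per stretch with a peak for the control, 602 and 1732 for shRNA5 and shRNA7, and 312 and 318 without and with doxycycline. H2BC11-H2AC11 and H2BC12-H2AC12 shared 1 peak of 50957 bp and 6755 tags upon shRNA7, while in the control list they had separate peaks of 433 and 552 tags. The testis histone pair H2AC1-H2BC1 had no peak in any list.

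None of the 9 stretches of proteasome genes had a control peak, and all 9 had one upon shRNA7 and in both lists of the doxycycline arm. Upon shRNA5 a peak was present at 6 of them. PSMD10-ATG4A, with a proteasome assembly chaperone, had 0, 120, 171, 56 and 29 tags in the order above. BECN1-PSME3, with an autophagy gene and a proteasome activator, had 0, 87, 120, 70 and 34. Neither had a control peak, and both had more tags upon shRNA7 than upon shRNA5.

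Of 26 stretches of mitochondrial ribosome and aminoacyl-tRNA synthetase genes, 16 had a control peak, 25 had one upon shRNA5, 23 upon shRNA7 and 26 in each list of the doxycycline arm. Of 13 chaperone stretches, 9, 12, 11, 13 and 12 had a peak. APTX-DNAJA1, with an HSP40 co-chaperone, had 180, 2157, 2681, 240 and 587 tags. Of 36 stretches with genes of the transcription machinery, 18, 32, 30, 35 and 34 had a peak, among them ZBTB4-POLR2A, with the largest subunit of RNAPII, at 710, 1529, 1994, 805 and 518 tags. Of 39 zinc finger stretches, 15, 33, 31, 39 and 36 had one, with control and shRNA7 shares of 38.5% and 79.5% near those of all stretches. The 3 collagen stretches had least, with no peak in any list at COL4A1-COL4A2 and COL4A4-COL4A3 and no control peak at COL4A6-COL4A5.

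The promoter shared by RECQL5 and SAP30BP, which codes for a partner of the corepressor subunit SAP30, had no peak in the control list or upon shRNA5. It had 1 peak of 280 tags upon shRNA7, of 135 without doxycycline and of 196 with it. The summit lay between the TSSs upon shRNA7, 50 bp from their midpoint, and at -753 and -772 bp without and with doxycycline, negative values lying on the side of the minus-strand gene, here RECQL5. A hairpin acts on the mRNA, so these values do not check the knockdown. The cells of the doxycycline arm also carried RECQL5 on a plasmid, and whether reads from that copy entered these peaks was not tested. The values therefore do not check the induction either.

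Other pairs showed how the values varied between promoters. PPAT-PAICS, which codes for enzymes of purine synthesis, had 84, 173, 204, 130 and 124 tags in this order. NPAT-ATM, with a coactivator of histone genes and the DNA damage kinase ATM, had 47, 145, 152, 52 and 35. TRIAP1-GATC, with a gene for a mitochondrial lipid-transfer partner and a subunit of a tRNA amidotransferase, had 91, 371, 763, 92 and 79. In these pairs both knockdown lists had more tags than the control list. Tags of the doxycycline arm are not set against those of the hairpin arm, since the number of reads differed between the arms.

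Without a control peak, SIRT3-PSMD13, with a mitochondrial deacetylase and a proteasome subunit, had a peak of 104 tags upon shRNA7, of 47 without doxycycline and of 32 with it, and none upon shRNA5. PDCD10-SERPINI1, with a gene of cerebral cavernous malformation and neuroserpin, had 95 tags in 2 peaks upon shRNA5, 128 in 1 peak upon shRNA7, 59 in 2 peaks without doxycycline and 21 in 1 peak with it. These promoters have TSSs 634 and 829 bp apart.

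**Figure D5:**
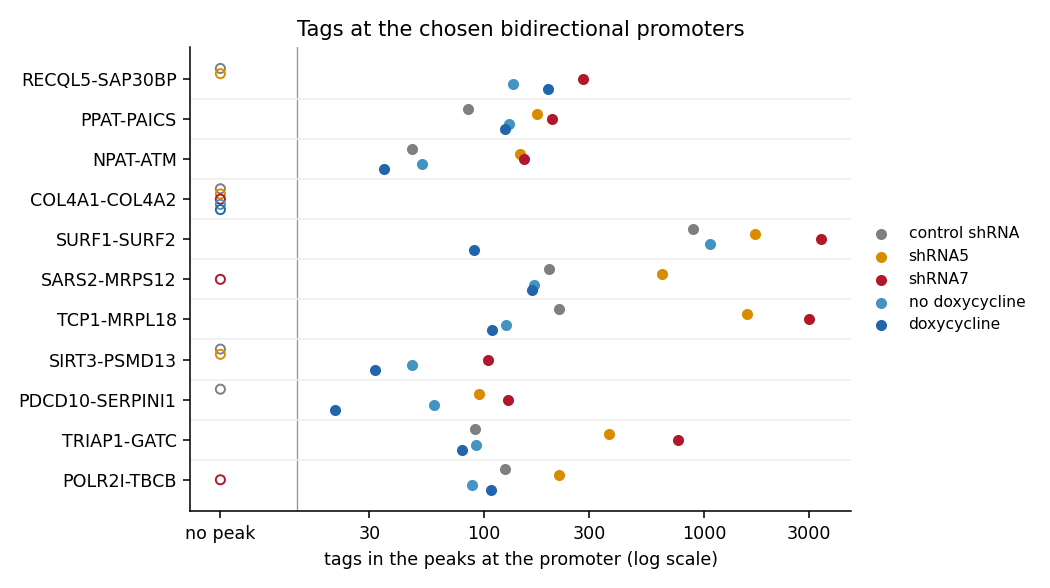
Tags in the peaks at RECQL5-SAP30BP and at 10 other bidirectional promoters chosen by gene name, in each of the 5 lists (log scale); open circles in the strip on the left mark lists without a peak. COL4A1-COL4A2 has no peak in any list, SARS2-MRPS12 and POLR2I-TBCB lack one only upon shRNA7, and SURF1-SURF2 runs from 90 tags with doxycycline to 3400 upon shRNA7.

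Long peaks can take in more than a promoter, and their tags are then not those of the pair alone. Peaks over 10 kb made up 8 of 336 at bidirectional promoters in the control list, 41 of 734 for shRNA5, 95 of 772 for shRNA7, 7 of 898 without doxycycline and 4 of 828 with it. SURF1-SURF2, with a cytochrome c oxidase assembly factor, shared a peak with MED22-RPL7A, with a ribosomal protein gene, in all lists but that with doxycycline. It lay at the end of that peak in the control, shRNA5 and no doxycycline lists, and inside it upon shRNA7. The shared peak had 891, 1697, 3400 and 1068 tags in the control, shRNA5, shRNA7 and no doxycycline lists. Its summit lay at -8284 to -8258 bp from the SURF1-SURF2 midpoint. With doxycycline, separate peaks of 90 tags at SURF1-SURF2 and 1126 tags at MED22-RPL7A were called. TCP1-MRPL18, with a chaperonin subunit and a mitochondrial ribosomal protein, had peaks of 3367 bp and 219 tags in the control list, 17971 bp and 1565 tags upon shRNA5, and 30975 bp and 3015 tags upon shRNA7, against 1941 and 2003 bp in the doxycycline arm.

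The promoters with most tags in a list are given next. PPP1R10-MRPS18B, with a nuclear regulator of protein phosphatase 1, had most tags in all 3 hairpin lists, with 2341 tags under the control hairpin and 4469 and 7688 under shRNA5 and shRNA7. It had 1029 without doxycycline and 729 with it. SRSF7-GEMIN6, with a splicing factor and a subunit of the SMN complex, had 1494, 2487, 3060, 1249 and 1504 tags in the order above, with the summit at -216 to -178 bp, on the SRSF7 side. CBX5-HNRNPA1, with heterochromatin protein HP1α and an RNA-binding protein, had 1478, 2148, 3583, 1276 and 1435 tags, with the summit 588 to 696 bp on the HNRNPA1 side. HNRNPK-RMI1, with another RNA-binding protein and a partner of the BLM helicase, was among the highest with doxycycline, with 1368, 2319, 3135, 693 and 1278. TLCD1-NEK8 had 1462, 2193, 5450, 1295 and 1157 tags, with summits at -8348 to -2934 bp. LRRC41-UQCRH, with a subunit of respiratory complex III, had a control peak of 1764 bp and 94 tags, but was part of peaks of 34095 and 32133 bp with 3252 and 5418 tags upon shRNA5 and shRNA7. Its summits there lay at -19356 and -19465 bp, so those tags do not describe this promoter.

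Both knockdown lists had a peak and the control list none at 377 stretches. Those with most tags were RFNG-GPS1, with a COP9 signalosome subunit, at 1050 tags upon shRNA5 and 1990 upon shRNA7, ACAP3-PUSL1 at 826 and 2168, and MORC2-TUG1, with a chromatin ATPase, at 850 and 1601. All 3 also had a peak in both lists of the doxycycline arm, of 14 to 89 tags with the drug. The knockdown peaks were 12293 to 19211 bp long, with summits 6686 to 10498 bp from the midpoint, and in the doxycycline arm 481 to 2219 bp long with summits within 410 bp. Their tags upon the hairpins were thus highest well to the plus-strand side of the promoter. At ATPSCKMT-CCT5, with a chaperonin subunit, the control list had a peak of 277 tags and neither knockdown list had any, the 1 such stretch, and the doxycycline arm had 226 and 200 tags.

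The promoters with a peak in only 1 list of the doxycycline arm had few tags. Without doxycycline only, the highest were ATG3-SLC35A5, with a conjugating enzyme of autophagy, at 52 tags, FBXL13-ARMC10 at 51 and CYP39A1-SLC25A27 at 38. With doxycycline only, they were CIR1-SCRN3 at 41 tags, WASHC5-NSMCE2 at 33 and ANO8-GTPBP3, with a mitochondrial tRNA-modifying enzyme, at 29. All 6 had peaks upon shRNA5 and shRNA7 and none in the control list.

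At 32 stretches the control list had a peak and the shRNA7 list had none. Of these, 31 had a peak upon shRNA5, with more tags than in the control list at each of the 31, and all 32 had a peak in both lists of the doxycycline arm. Neither trait was particular to them. More tags upon shRNA5 were found at 334 of all 335 stretches with a peak in both lists. Of the 305 stretches with a control and a shRNA7 peak, 303 had a peak in all 5 lists. They were not the weakest control peaks: their median was 154 control tags, against 84 at stretches with a peak in both lists. No shRNA7 peak was found at 6 of 127 stretches (4.72%, 2.18 to 9.92) with under 75 control tags and at 12 of 51 (23.5%, 14.0 to 36.8) with 200 or more. The same was seen at one-way TSSs, at 23 of 819 (2.81%) and 56 of 428 (13.1%, 10.2 to 16.6). By chromosome, they were 8 of 29 stretches with a control peak on chromosome 17, 10 of 27 on chromosome 19 and 14 of 281 (4.98%, 2.99 to 8.19) on the others. One-way TSSs showed the same chromosomes, with 29 of 209 (13.9%), 33 of 209 (15.8%) and 84 of 1945 (4.32%). These breakdowns were chosen after the values were seen.

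The one with most control tags was that of a transcription elongation gene. PAF1-MED29, with subunits of the PAF1 elongation complex and of Mediator, had 903 tags in the control list, 2434 upon shRNA5, 436 without doxycycline and 472 with it, and the nearest shRNA7 peak lay 28084 bp away. C17orf75-ZNF207, with a spindle and splicing protein, had 876, 1062, 264 and 319 tags, and YIPF3-POLR1C, with a subunit shared by RNA polymerases I and III, had 720, 1754, 412 and 99. These 3 were chosen after their values were seen. SARS2-MRPS12, whose genes serve translation in mitochondria, had 198, 644, 168 and 165 tags, and POLR2I-TBCB, with a subunit of RNAPII and a tubulin cofactor, had 124, 220, 88 and 107. RSRC2-KNTC1, with a kinetochore gene, had 246, 2607, 267 and 291. Over the 32 stretches, the nearest shRNA7 peak lay a median of 15117 bp (3559 to 28180) away, from 804 to 232888 bp, and over 10 kb away at 19.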

How the data were processed

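RNAPII ChIP-seq libraries from HEK293 cells were compared through the deposited peak lists, 1 library per group. Per the labels and the study's methods, the authors aligned reads to hg19 (GRCh37) with Bowtie 0.12.7 and called peaks with MACS 1.4.2, each library against IgG. The deposited tags are a count per peak that the authors did not normalise. The deposited significance score is −10 times the log10 of the authors' p-value, with a lowest value of 50 in each list. The authors' fold enrichment is a ratio over local background, and the deposited FDR is in percent. The hairpin files hold fewer peaks than the study's methods state, with a larger part missing from the control list than from those of shRNA5 and shRNA7, and which peaks were left out is not given in the sources used here. Tags in peaks summed to 842310, 3778665, 6698771, 1449163 and 1539844 in the control, shRNA5, shRNA7, no doxycycline and doxycycline lists. Total depth per library is not in the files. The study's methods say that compared samples had similar numbers of reads, and give a lower range for the doxycycline arm than for the hairpin arm.

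TSSs came from GENCODE release 44 lifted to GRCh37, which may be later than the annotation of the authors. Overlap needed 1 bp. Several peaks at a stretch were summed for tags, and the longest gave the length. Shares have Wilson, differences Newcombe and medians order-statistic 95% intervals (SciPy 1.17.1, pandas 2.3.3), and sequences were read with pyfaidx 0.9.0.4. Overlaps and intervals were tested on simulated data. Alternatives were a significance score of at least 100, an FDR of at most 5%, a fold enrichment of at least 10, lists of equal length, the summit inside the window, TSSs up to 500 bp apart and the longest transcript by spliced length. Named promoters were RECQL5, pairs chosen by gene name (10 found), the 3 with most tags per list and per pattern of presence in an arm, and members of 8 gene lists. Members and lists were chosen with earlier results of these data known. Of the genes chosen by name, 13 were in no such pair by this annotation.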

Additional observations from a re-analysis of the deposited data

Results flagged for a closer look

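At 31 bidirectional promoters the shRNA5 list had a peak with more tags than the control peak, and the shRNA7 list held no peak. The missing shRNA7 peak stood out as a difference between both hairpins against the same control library, and with 1 library each the difference was not tested. More tags upon shRNA5 were found at 334 of all 335 promoters with a peak in both lists, so that part is not particular to these promoters. A peak not listed for shRNA7 gives no direction, since peaks were left out of the deposited hairpin lists. At the 305 promoters with a peak in both the control and the shRNA7 lists, all had more tags upon shRNA7.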

How the results depend on the processing

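No paired analysis was possible because there was 1 library in each group, and for the same reason none was left out. Of 266 values recomputed under 7 other settings, 211 stayed within set bounds, 54 moved further and 1 reversed. The bounds were the counting interval, or 1.5 times for counts and for the shares of promoters or pairs with a peak. Such a share can leave its interval and still lie within the bounds. For shRNA7, the share of promoters with a peak did so at 57.2% with a fold enrichment of at least 10, against 81.8%. No setting turned the sign of the difference between bidirectional and one-way TSSs. The reversal came with hairpin lists of equal length, where shRNA7 had 0.807 times the control number of peaks at bidirectional promoters (271 peaks) and shRNA5 1.01 times (340 peaks). There, 36% and 29% of promoters had a peak upon shRNA5 and shRNA7, the differences from one-way TSSs were 21.5 and 14.3 points, 157 and 179 bidirectional TSSs had a peak that the control list lacked, 311 had a control peak and none upon shRNA7, the tag ratios were 2.11 and 3.74, and 28.8% and 33% of pairs had a body peak. At a minimum significance score of 100, the control list kept 138 peaks at 14.7% of promoters, the folds of shRNA5 and shRNA7 were 4.51 and 4.98, and the differences from one-way TSSs were 8.79 points in the control list, 37.7 upon shRNA5 and 41.4 with doxycycline. At that score 29 TSSs had a control peak and none upon shRNA7, 192 had one without doxycycline only, the shRNA5 tag ratio was 1.91, and body peaks were found in 13.8% of pairs in the control list and in 43.6% and 36.6% without and with doxycycline.

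With a fold enrichment of at least 10, shRNA5 had 472 peaks at 50% of promoters, and the folds were 1.51 for shRNA5, 1.72 for shRNA7 and 0.790 for doxycycline. The differences from one-way TSSs were then 30.4, 30.1 and 40.1 points for the same lists, 391 and 577 TSSs had a peak upon shRNA5 and shRNA7 that the control list lacked, 115 had a control peak and none upon shRNA7, 312 had one without doxycycline only, and body peaks were found in 22.1%, 33.9% and 38% of pairs upon shRNA5, shRNA7 and doxycycline, against 20.9% in the control list. With the summit required inside the window, the differences were 19.7 points in the control list, 37 and 32.6 upon shRNA5 and shRNA7, and 36.3 and 39.3 without and with doxycycline, and 105 TSSs had a control peak and none upon shRNA7. With TSSs up to 500 bp apart, summits lay between them at 14.1%, 14.4% and 14.7% of promoters in the hairpin lists, and with the longest spliced transcript at 20.9% upon shRNA7 and at 23.1% and 24.3% without and with doxycycline. An FDR of at most 5% moved no value beyond the bounds set above. Upon shRNA7, though, the share of promoters with a peak fell from 81.8% to 75.2%. The shRNA7 share of pairs with a body peak fell from 73.9% to 66.4%, and both lay below their counting intervals. The split by CpG content, added after the data were seen, gave the differences of 18.2, 26.5, 19.4, 18.4 and 25.8 points already described. The cause of these moves was not tested. With 1 library per group, biological spread cannot be estimated.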
